A study of Homo sapiens with 12 samples.

Results

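The difference between 2 lung cancer cell lines was read from the libraries that had received control siRNA (siCont). The cells were thus transfected, and the series holds no library of untransfected cells. The comparison took the 3 siCont libraries of H460 and the 3 siCont libraries of H1299, 6 of the 12 libraries of the series, and all genes of the deposited count table. Both are established human non-small-cell lung cancer lines, grown in DMEM with 10% FBS. H460 has wild-type p53 and H1299 has none, and each line came with its own history of mutations beside p53. The other 6 libraries, in which the same lines had received siRNA against NGFR (siNGFR), were used to show each line difference once more in libraries that share no sample with the siCont ones, and to test where the difference was not the same. The labels call the libraries of a group biological replicates. Nothing in them ties a library of H460 to a library of H1299, so line, culture and any batch of extraction or sequencing cannot be told apart. Each group is a single line, so a gene that differs here differs between these lines and not between p53-positive and p53-negative tumours.

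p53 is a transcription factor that is kept low by the ubiquitin ligase MDM2 and, when released by stress, switches on genes that stop the cell cycle, start apoptosis, repair DNA and alter metabolism. Many of these genes also answer to other factors, and p53 is only 1 of the lesions that tell lung cancer lines apart. As background on these lines, H460 is known for mutations of STK11 (which encodes the kinase LKB1) and of KEAP1, the protein that holds the antioxidant factor NRF2 in check, and for loss of CDKN2A. H1299 is known for a mutation of NRAS and loss of SMARCA4, an ATPase of the SWI/SNF chromatin remodeller. The gene groups below follow these pathways, then cell identity, immunity, growth signals, metabolism and the noncoding RNAs.

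Ribosome-depleted total RNA was sequenced on the Ion Torrent platform, and the siCont libraries held 19571807 to 22560867 counts in H1299 and 19107878 to 26625647 in H460. Log2 CPM, the counts scaled to library size, correlated at 0.9875 to 0.994 between libraries of a line and at 0.8216 to 0.8357 between lines, across genes. The first principal component, with 92.55% of the variance, separated the lines. Replicates differed by more than the sampling noise (a chi-square of 19.3 to 44.7 times its degrees of freedom), so none was counted as a duplicate. The RNA classes were not equally represented. Protein-coding genes took 39.2% to 45.0% of the counts in H460 and 30.1% to 34.0% in H1299, and small nucleolar RNAs took 6.56% to 8.75% and 12.2% to 13.8%. Both differences had p = 0.1 in a two-sided exact permutation test, the smallest p that 3 libraries against 3 can give. In bulk RNA, fewer cells of a kind and less RNA per cell cannot be told apart. Most markers of other cell types were at or near the floor. None of 10 endothelial markers passed the filter on low counts (summed CPM 1.55 to 1.90 in H1299 and 0.683 to 1.08 in H460). Of 12 leukocyte markers (10.9 to 16.6 and 16.8 to 22.9) 3 could be tested, CD14 (5.46) higher, ITGAM (-3.89) lower and CD68 (-0.77) lower by less than 2-fold, while the defining marker PTPRC (CD45) had at most 2 counts in a library. Fibroblast markers were the exception (0.575 to 1.48 and 27.9 to 31.9), since the 3 of 10 that could be tested, COL3A1 (0, 2 and 0 counts in H1299 and 491, 610 and 612 in H460), PDGFRB (4.48) and COL1A1 (2.85), were all higher in H460, whereas DCN, COL1A2, FAP and POSTN had at most 2 counts in a library. These genes are also members of the mesenchymal list or of the collagens below, and the part of other cells in those results was not tested.

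The lines differed across the whole transcriptome. Of 20105 genes that edgeR could test (quasi-likelihood, two-sided, Benjamini-Hochberg adjusted over all genes tested), 12713 had an adjusted p under 0.05, 63.2% of the genes tested, with 6419 higher and 6294 lower in H460. A stricter rule is used for all counts of genes below, an adjusted p under 0.05 together with at least a 2-fold difference. By this rule 3604 genes were higher in H460 (17.9% of all tested) and 3538 lower (17.6%). A list of genes chosen without regard to the lines would hold such shares. The lists below were instead chosen with earlier results of these data known, so their shares describe the members picked. The median log2 fold change of all genes, H460 minus H1299, was -0.02. It moved by 0.26 when libraries were scaled by their size alone instead of by TMM, and then 64.2% of calls at the adjusted p were higher in H460 in place of 50.5%, and 63.9% of the 2-fold calls in place of 50.5%. Values below are from TMM scaling. In 67.3% of the genes tested, the CPM of the H460 libraries did not overlap those of H1299. Of the 7142 2-fold calls, 6925 could be tested in the siNGFR libraries, where 6663 had the same direction (5971 with an adjusted p under 0.05) and 262 the opposite one (7 with an adjusted p under 0.05). Counts of single genes are given in the order of libraries 1, 2 and 3 of H1299 and 4, 5 and 6 of H460. Log2 fold changes are given with an approximate standard error (n = 3 per line), worked back from the F statistic of the test. It is the absolute log2 fold change divided by the square root of that statistic. Where a line had only a few counts, this error is too small. Where a line had no count at all, the fold is a lower bound set against 3 counts over its libraries. Where it had 1 to 3, the ratio is given with an interval at the 95% level that covers counting error only.

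**Figure D1:**
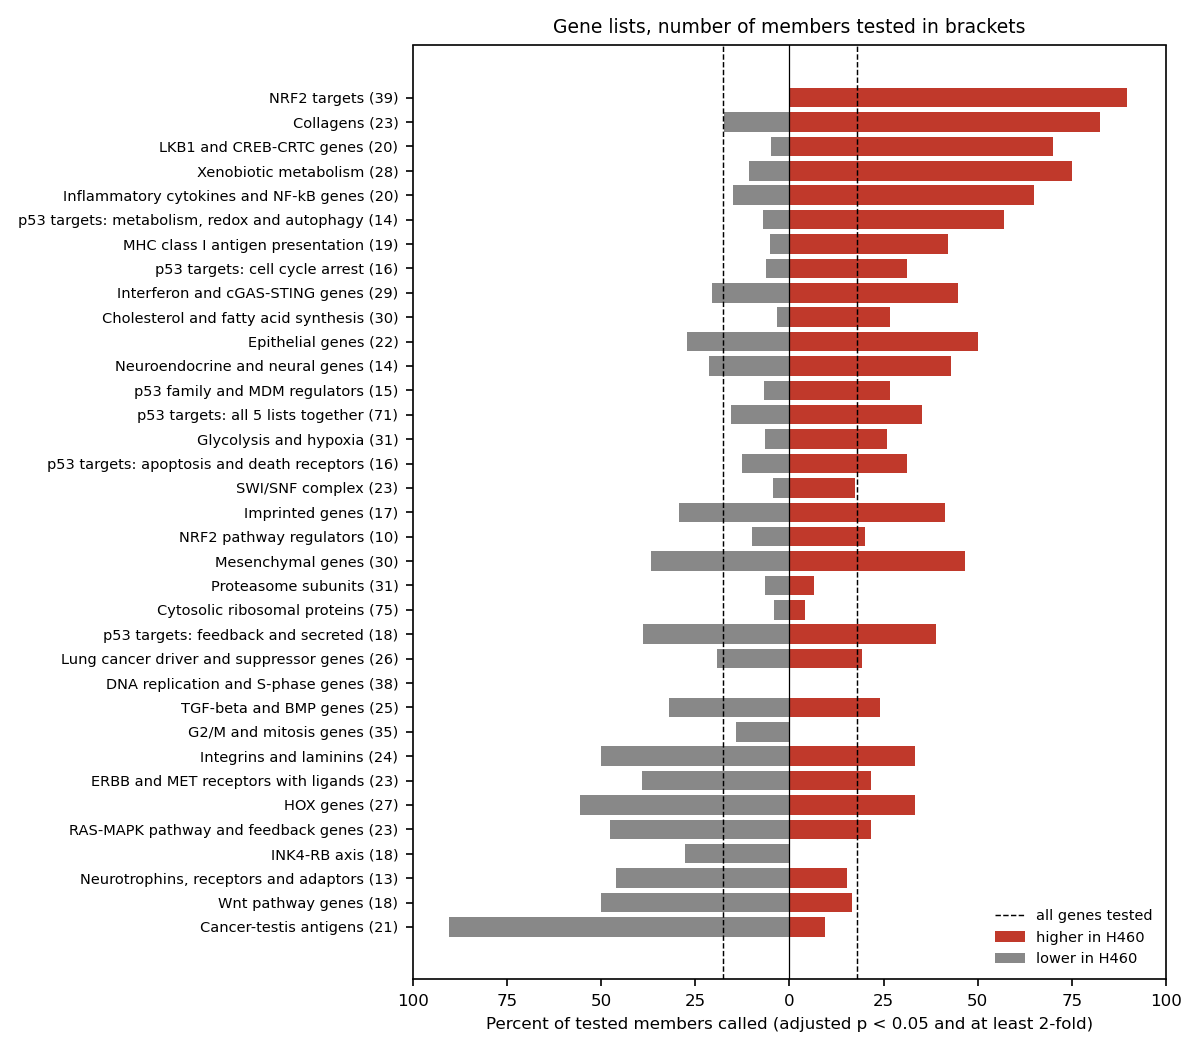
Percent of the tested members of each gene list with at least 10 tested that were called higher (right, red) or lower (left, grey) in H460 than in H1299 at an adjusted p under 0.05 and at least 2-fold, with the number of members tested in brackets and dashed lines at the shares over all genes tested (17.9% and 17.6%). NRF2 targets (35 of 39 higher) and cancer-testis antigens (19 of 21 lower) lie at the ends of the scale. The lists were chosen with earlier results of these data known.

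NGFR, the gene that siNGFR targets, was close to the floor in both lines, with 1, 6 and 1 counts in H1299 and 2, 3 and 1 in H460, and did not pass the filter.

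The regulators of p53 did not move together. Of 15 tested, 4 were higher and 1 lower in H460. MDM4, the inhibitory partner of MDM2, had 60, 59 and 53 counts in H1299 and 224, 335 and 318 in H460 (1.90 ± 0.15), and the kinase gene HIPK2 (2.21), the acetyltransferase gene EP300 (1.84) and the deubiquitinase gene USP7 (1.22) were also higher. TP73, which encodes a member of the p53 family, was lower (45, 43 and 35 counts in H1299 and 5, 8 and 10 in H460, -2.84 ± 0.32), and TP63 had 0 or 1 count in each library. MDM2, both a target and the main negative regulator of p53, had 531, 575 and 437 counts in H1299 and 608, 867 and 833 in H460. In CPM the libraries of the lines overlapped, and the log2 fold change of 0.13 ± 0.12 did not pass the test (edgeR adjusted p = 0.377), though it did with library size as the only scaling (0.40, edgeR adjusted p = 0.0165). In the siNGFR libraries its log2 fold change was 1.21, and this difference between the comparisons passed its own test (-1.12, edgeR adjusted p = 0.0192).

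Targets of p53 were more often higher than lower in the line with p53, and many did not differ. Of 77 genes in 5 lists of targets, 71 could be tested, and 25 were higher (35.2%) and 11 lower (15.5%) in H460, with a median log2 fold change of 0.50. Of 16 arrest genes tested, 5 passed the 2-fold rule towards H460 and 1 towards H1299. CDKN1A, the gene of the cell cycle inhibitor p21, had 483, 381 and 336 counts in H1299 and 893, 1043 and 1057 in H460. All H460 libraries were above all H1299 libraries, yet the difference was under 2-fold (0.90 ± 0.11, edgeR adjusted p = 4.06e-06). The log2 fold change in the siNGFR libraries was 3.26, and the gap of -2.40 between the comparisons passed its test (edgeR adjusted p = 0.00468). The antiproliferative gene BTG2 had no count in any H1299 library and 32, 35 and 34 in H460, at least 24.9-fold higher. SFN, which encodes the G2 checkpoint protein 14-3-3σ, had 2, 7 and 4 counts in H1299 and 1409, 1741 and 1607 in H460 (8.05 ± 0.23), and the cytokine gene GDF15 had 6, 10 and 8 counts in H1299 and 268, 367 and 321 in H460 (4.86 ± 0.23). PLK2 (2.43) and KLF4 (1.91) completed the higher genes, whereas SESN1, ZMAT3, CCNG1 and PLK3 overlapped between the lines. CCNG2 (-2.18) was lower. GADD45A, induced by DNA damage, had 147, 122 and 137 counts in H1299 and 90, 101 and 132 in H460 (-0.77 ± 0.17).

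Among 16 apoptotic targets 5 were higher and 2 lower. BAX, a pore-forming protein of the mitochondrial pathway, had 483, 499 and 482 counts in H1299 and 1267, 1491 and 1281 in H460 (1.03 ± 0.14, edgeR adjusted p = 1.40e-05), so that every H460 library was above every H1299 library. BBC3, which encodes PUMA, had 44, 39 and 33 counts in H1299 and 24, 28 and 52 in H460 (-0.61 ± 0.28, edgeR adjusted p = 0.0735) and passed only without H460 replicate 6 (-0.91). The receptor gene EDA2R, with 0, 1 and 0 counts in H1299 and 94, 158 and 129 in H460, was 282-fold higher (interval 50.3 to 11155). The nuclease gene AEN (1.48), PERP (1.54) and TP53I3 (1.54) were higher. The decoy receptors of TRAIL went the other way, since TNFRSF10D had 764, 526 and 495 counts in H1299 and 38, 72 and 78 in H460 (-3.68 ± 0.16) and TNFRSF10C was lower too (-2.94), whereas the death receptor genes TNFRSF10B (0.73) and TNFRSF10A (0.61) were higher by less than 2-fold. None of 8 DNA repair targets passed the 2-fold rule, and at the adjusted p alone XPC (0.98) and PCNA (0.79) were higher and RRM2B (-0.42) lower, the last lost with library size as the only scaling (-0.16, edgeR adjusted p = 0.522), with DESeq2, with no filter, with at least 10 counts in every library, and without any of H1299 replicates 1 and 2 and H460 replicates 4 and 5 (-0.43 to -0.30).

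The metabolic targets had the largest share of higher genes among the 5 lists, 8 of 14 with 1 lower and a median of 1.06. SPATA18, a gene of mitochondrial quality control, had no count in H1299 and 19, 21 and 27 in H460, at least 16.5-fold higher. NINJ1 (2.86), the sestrin gene SESN3 (2.48), the autophagy genes DRAM1 (2.32) and ULK1 (1.57) and the ferredoxin reductase gene FDXR (163, 141 and 156 counts in H1299 and 461, 505 and 454 in H460, 1.20 ± 0.15) were higher as well. ALDH4A1 (-1.56) was lower. Feedback and secreted targets split evenly, 7 higher and 7 lower of 18. PHLDA3, which encodes an inhibitor of Akt, had no count in H1299 and 581, 547 and 606 in H460 (at least 427-fold), and SERPINB5, which encodes maspin, 258, 386 and 383 against none (at least 253-fold). IGFBP3, which binds insulin-like growth factors, had 32, 29 and 30 counts in H1299 and 1271, 1691 and 1632 in H460 (5.21 ± 0.14). In the opposite direction, the thrombospondin gene THBS1 (2095, 1362 and 1553 counts in H1299 and 77, 93 and 112 in H460, -4.58 ± 0.14), DKK1 (-4.92) and TNFRSF6B (-5.33) were lower in H460, and TGFA, a ligand of the EGF receptor, had 284, 193 and 152 counts in H1299 and 1, 0 and 0 in H460, 851-fold higher (interval 152 to 33655) in H1299.

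**Figure D2:**
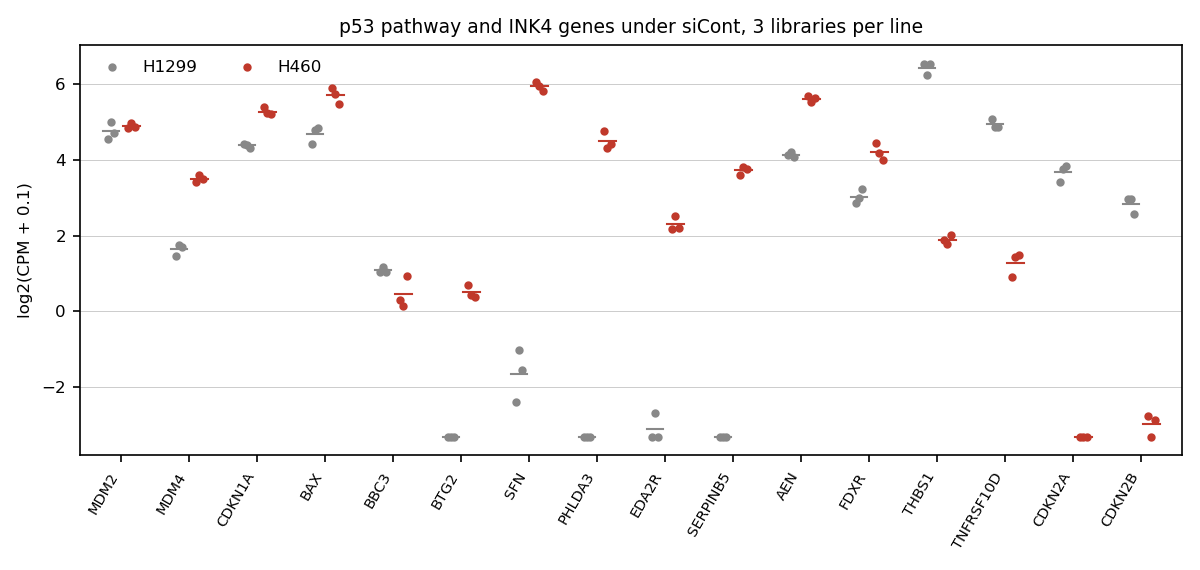
Expression of p53 pathway and INK4 genes in each siCont library as log2(CPM + 0.1), with H1299 in grey, H460 in red, points for the 3 libraries of a line and short lines for their means. PHLDA3, SERPINB5 and BTG2 sit at the level of 0 counts in H1299, CDKN2A sits there in H460, and MDM2 overlaps between the lines.

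Promoters of 60 of the 77 p53 targets were present in the RefSeq set used here (GRCh38.p14, from 250 bases before the start to 50 after it), and 7 of them (11.7%) held the consensus decamer of p53 on either strand, against 6.54% of 27305 promoters. A full p53 site is a pair of such decamers, and sites outside these windows were not looked at. The promoters of AEN (chr15:88621090-88621389, plus strand) and FDXR (chr17:74872945-74873244, minus strand), both higher in H460, held the same decamer and are shown because they are called targets with a match, with the decamer in capitals.
AEN: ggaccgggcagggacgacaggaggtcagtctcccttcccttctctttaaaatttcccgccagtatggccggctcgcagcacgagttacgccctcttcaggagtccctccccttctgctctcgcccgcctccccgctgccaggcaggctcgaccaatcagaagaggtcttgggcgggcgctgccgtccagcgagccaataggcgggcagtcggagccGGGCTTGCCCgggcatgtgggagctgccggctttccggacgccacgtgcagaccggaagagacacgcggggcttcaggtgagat
FDXR: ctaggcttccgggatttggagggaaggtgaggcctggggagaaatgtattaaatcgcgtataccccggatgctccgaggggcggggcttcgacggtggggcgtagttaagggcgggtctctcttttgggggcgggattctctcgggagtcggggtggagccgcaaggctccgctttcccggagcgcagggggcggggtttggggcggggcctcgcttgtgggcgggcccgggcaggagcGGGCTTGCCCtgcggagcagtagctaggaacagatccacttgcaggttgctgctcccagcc

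The INK4 and retinoblastoma (RB) axis was set beside the p53 targets. Its inhibitors p16INK4A and p15INK4B block the kinases CDK4 and CDK6, and p14ARF restrains MDM2. CDKN2A (9:21967753-21995301), which encodes p16INK4A and p14ARF, had 240, 242 and 240 counts in H1299 and none in any H460 library, at least 326-fold lower in H460. CDKN2B, its neighbour, had 175, 138 and 99 counts in H1299 and 1, 0 and 1 in H460, 279-fold higher (interval 76.6 to 2308) in H1299. Along the same stretch of chromosome 9, the antisense RNA CDKN2B-AS1 had 17, 23 and 14 counts against 0, 0 and 1, and DMRTA1 39, 63 and 32 against 1, 0 and 1. MTAP, on the other side of CDKN2A, was read in both lines with 354, 296 and 225 counts in H1299 and 479, 669 and 691 in H460 (0.64 ± 0.12), as was KLHL9 with 179, 159 and 137 counts in H1299 and 265, 301 and 350 in H460. Between CDKN2A and DMRTA1 the other genes had 0 or 1 count in each H460 library, except UBA52P6, a processed pseudogene with 54, 69 and 72 counts in H460. The protein-coding gene model ENSG00000264545, which starts within MTAP and extends over CDKN2A and CDKN2B, had 70, 63 and 52 counts in H1299 and 96, 125 and 154 in H460, and its reads cannot be told from those of MTAP where they overlap. Of 18 genes of this axis 5 were lower and 0 higher, also CDKN1B (-1.81), CDKN2D (-1.82) and CDK6 (-1.41). RB1 had 57, 27 and 28 counts in H1299 and 49, 95 and 108 in H460 (0.73 ± 0.26), with an overlap between the lines in CPM and a call that was lost without any of H1299 replicates 2 and 3 and H460 replicates 5 and 6 (0.56 to 0.69).

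NRF2 targets were the most one-sided towards H460 of the lists with at least 10 genes tested. Their members were chosen with earlier results of these data known, so this rank is a description only. NRF2 (encoded by NFE2L2) pairs with small MAF proteins at antioxidant response elements and switches on genes that make glutathione and NADPH, reduce quinones and carbonyls, and pump conjugates out of the cell. Of 39 targets tested, 35 were higher in H460 and 0 lower, with a median log2 fold change of 3.11, and 38 were higher at the adjusted p alone. The exception was CBR3 (117, 100 and 76 counts in H1299 and 134, 156 and 161 in H460, 0.20 ± 0.16, and 0.46 with a call when library size was the only scaling), and GPX2, with 3 to 13 counts per library, was not tested. In the siNGFR libraries 36 were higher and 0 lower, with a median of 3.05.

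The aldehyde dehydrogenase gene ALDH3A1 and aldo-keto reductase genes (AKR) led the list. AKR1C1 had 2, 1 and 1 counts in H1299 and 10181, 12333 and 13637 in H460 (12.60 ± 0.23, edgeR adjusted p = 6.25e-14), and the 4 genes of the AKR1C family, which are alike in sequence and may share reads, summed to 6, 12 and 7 against 22381, 28807 and 31779. AKR1B10 had 0, 1 and 1 counts in H1299 and 9507, 12675 and 11404 in H460, 12416-fold higher (interval 3437 to 102530). ALDH3A1, an aldehyde dehydrogenase, had 0, 1 and 1 counts in H1299 and 20385, 20267 and 19463 in H460, 22224-fold higher (interval 6152 to 183510). For these genes H1299 was at the floor and H460 far above it. KYNU (1, 1 and 1 counts in H1299 and 1056, 1563 and 1464 in H460), NR0B1 (1, 0 and 1 counts in H1299 and 839, 1113 and 1244 in H460) and CYP4F11 (1, 0 and 0 counts in H1299 and 1541, 1867 and 1721 in H460) had the same pattern.

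Enzymes of NADPH supply and of glutathione were read in both lines. ME1, the cytosolic malic enzyme, had 15, 11 and 8 counts in H1299 and 496, 813 and 707 in H460 (5.43 ± 0.19), and TALDO1 (2.88), PGD (2.18) and TKT (2.13) of the pentose phosphate pathway were also higher. SLC7A11, the cystine importer, had 104, 80 and 61 counts in H1299 and 2902, 4071 and 4301 in H460 (5.09 ± 0.14), and the glutathione enzymes GCLC (2.37), GCLM (2.01) and GSR (2.22) followed. NQO1, a quinone reductase, had 1565, 1067 and 1069 counts in H1299 and 8329, 12317 and 12731 in H460 (2.74 ± 0.13), and in all of these genes each H460 library exceeded each H1299 library. The ferritin genes FTL (4.22) and FTH1 (3.11) were higher, though both have many processed pseudogenes that can take or lend reads. TXNRD1 (1.38) and PRDX1 (1.58) differed least among the 2-fold calls, and PIR (0.93), TXN (0.88) and CBR1 (0.29) passed only the adjusted p, CBR1 not in a fit of all 12 libraries (0.30) and not without any of H1299 replicates 1 and 2 and H460 replicates 4 and 5 (0.22 to 0.31).

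The regulators of NRF2 moved little beside their targets. NFE2L2 had 216, 152 and 179 counts in H1299 and 232, 389 and 372 in H460 (0.41 ± 0.14, edgeR adjusted p = 0.0195), a call lost without any of H1299 replicates 1 and 2 and H460 replicate 5 (0.30 to 0.39). KEAP1 had 1883, 1739 and 1893 counts in H1299 and 3259, 4571 and 3735 in H460 (0.62 ± 0.13). Of 10 regulators 2 were higher, the partner MAFG (1.83) and the KEAP1-binding autophagy receptor SQSTM1 (1.69), and 1 was lower, MAFF (-2.12). The repressor BACH1 was lower by less than 2-fold (-0.53 ± 0.12), and not called with library size as the only scaling (-0.26).

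**Figure D3:**
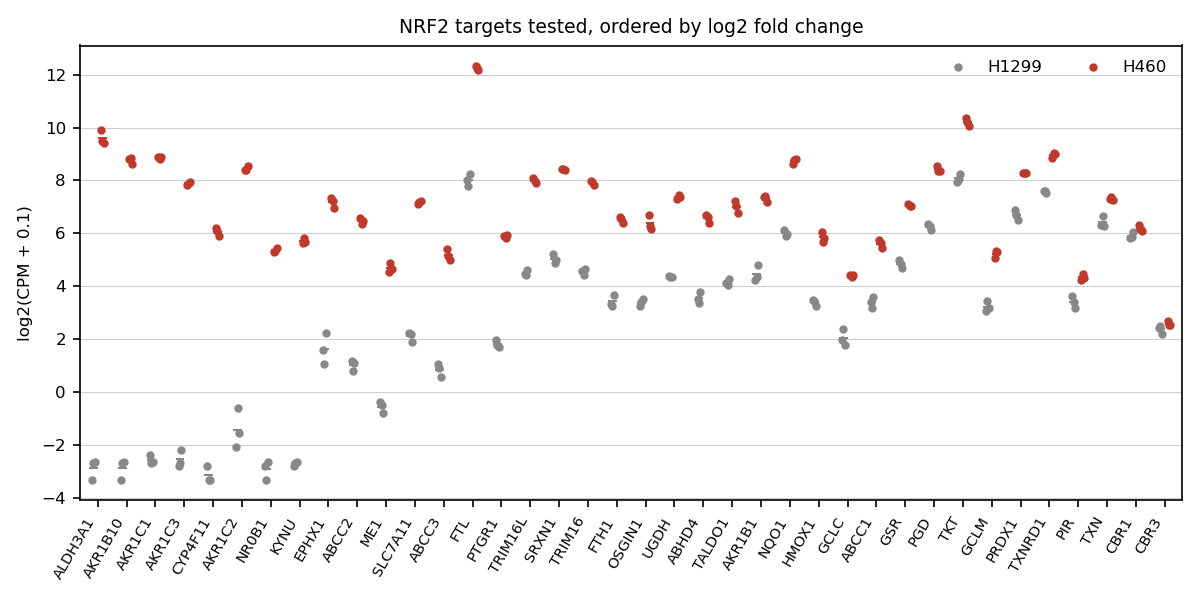
Expression of 38 tested NRF2 targets in each siCont library as log2(CPM + 0.1), ordered from left by log2 fold change, with H1299 in grey, H460 in red and short lines for the means of 3 libraries. The genes on the left are near 0 counts in H1299, and the lines come together towards CBR3 on the right.

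The core of the antioxidant response element, TGACNNNGC on either strand, was present in 8 of the 28 target promoters in the RefSeq windows (28.6%), against 13.6% of all 27305. Promoters of 3 targets that were higher in H460 are shown with the core in capitals, GCLM (chr1:93909381-93909680, minus strand), ME1 (chr6:83431002-83431301, minus strand) and TXNRD1 (chr12:104215529-104215828, plus strand), which span the range from a 5.43 to a 1.38 log2 difference. In TXNRD1 and ME1 the core occurs more than once.
GCLM: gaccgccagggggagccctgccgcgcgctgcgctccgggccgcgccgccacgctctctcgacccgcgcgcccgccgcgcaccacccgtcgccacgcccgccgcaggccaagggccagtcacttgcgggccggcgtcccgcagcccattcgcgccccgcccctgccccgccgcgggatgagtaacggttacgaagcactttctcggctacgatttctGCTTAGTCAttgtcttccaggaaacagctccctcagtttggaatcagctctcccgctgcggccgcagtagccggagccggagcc
ME1: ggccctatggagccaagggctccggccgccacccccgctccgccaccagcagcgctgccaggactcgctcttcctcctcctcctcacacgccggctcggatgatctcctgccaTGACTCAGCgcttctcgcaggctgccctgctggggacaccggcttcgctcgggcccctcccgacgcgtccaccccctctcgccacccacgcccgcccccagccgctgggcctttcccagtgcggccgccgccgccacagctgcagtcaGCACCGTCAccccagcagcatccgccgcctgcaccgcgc
TXNRD1: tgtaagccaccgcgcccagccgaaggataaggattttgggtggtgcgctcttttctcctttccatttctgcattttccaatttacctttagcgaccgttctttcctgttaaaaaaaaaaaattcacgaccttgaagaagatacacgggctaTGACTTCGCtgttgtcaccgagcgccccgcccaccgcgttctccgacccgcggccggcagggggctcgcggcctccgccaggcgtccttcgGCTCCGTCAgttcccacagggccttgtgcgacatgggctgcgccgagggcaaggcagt

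Genes of foreign compound metabolism overlap the NRF2 targets and were also mostly higher, 21 of 28 with 3 lower and a median of 2.92. Outside the NRF2 list, ALDH1A1 had 0, 1 and 0 counts in H1299 and 189, 271 and 283 in H460, 549-fold higher (interval 98.3 to 21727), and CYP1B1 (4.76), SULT1A1 (4.56) and GSTM3 (4.24) were higher. The glutathione transferases GSTM1 (6.12), GSTM2 (3.70) and GSTM4 (3.87) lie in a cluster of similar genes that may share reads. The exporter gene ABCB1 (79, 32 and 36 counts in H1299 and 0, 2 and 1 in H460) was read almost only in H1299, whereas ABCG2 (2.83) was higher in H460. Of 5 tested genes of metal binding, MT1A had no count in H1299 and 90, 115 and 88 in H460 (at least 72.2-fold), and MT2A was lower (284, 227 and 263 counts in H1299 and 103, 133 and 103 in H460, -1.63 ± 0.16).

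LKB1 activates the salt-inducible kinases, which hold back the CRTC coactivators of the cAMP-responsive factor CREB. STK11 itself was lower in H460, with 652, 624 and 488 counts in H1299 and 305, 311 and 370 in H460 (-1.27 ± 0.13, edgeR adjusted p = 6.60e-07). Of 20 tested genes of the LKB1 and CREB-CRTC list 14 were higher and only STK11 lower (none with library size as the only scaling), with a median of 2.53. SIK1, a salt-inducible kinase, had 1, 1 and 0 counts in H1299 and 2200, 2501 and 2614 in H460, 2704-fold higher (interval 748 to 22334). LINC00473, a long noncoding RNA, had 0, 0 and 3 counts in H1299 and 1006, 1267 and 1130 in H460, 839-fold higher (interval 287 to 4069). CPS1, a mitochondrial enzyme of the urea cycle, had 3, 7 and 4 counts in H1299 and 4813, 6844 and 7052 in H460 (9.91 ± 0.22). These genes were near the floor in each H1299 library and far above it in H460.

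The nuclear receptor genes NR4A1 (25, 23 and 29 counts in H1299 and 419, 451 and 422 in H460, 3.64 ± 0.19), NR4A2 (3.27) and NR4A3 (4.20), immediate targets of CREB, were all higher, as were the phosphodiesterase genes PDE4D (3.72) and PDE4B (2.85), the cyclooxygenase gene PTGS2 (2.21) and CREM (1.24). FGG, a fibrinogen chain gene, had no count in H1299 and 52, 55 and 41 in H460, at least 36.5-fold higher. Of the coactivators, CRTC1 (1.38) and CRTC3 (1.47) were higher and CRTC2 (0.23 ± 0.16) passed only without H460 replicate 6 (0.39) or with library size as the only scaling (0.51). SIK2 had 684, 490 and 505 counts in H1299 and 661, 962 and 821 in H460 (0.11 ± 0.11) and passed only with library size as the only scaling (0.38).

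The core of the cAMP response element, TGACG on either strand, was a motif chosen after the values were seen. It occurred in 10 of 20 promoters of the list (50%) and in 25% of all, while the full element TGACGTCA occurred in 0 of the 20 and in 1.98% of all. The promoters of SIK1 (chr21:43427082-43427381, minus strand) and NR4A3 (chr9:99821635-99821934, plus strand) are shown because each holds several cores, in capitals.
SIK1: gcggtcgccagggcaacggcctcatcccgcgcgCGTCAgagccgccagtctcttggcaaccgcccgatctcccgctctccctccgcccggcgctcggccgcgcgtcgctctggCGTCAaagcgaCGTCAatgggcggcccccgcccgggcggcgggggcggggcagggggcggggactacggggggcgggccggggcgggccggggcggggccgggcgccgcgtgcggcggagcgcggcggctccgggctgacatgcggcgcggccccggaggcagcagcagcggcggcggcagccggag
NR4A3: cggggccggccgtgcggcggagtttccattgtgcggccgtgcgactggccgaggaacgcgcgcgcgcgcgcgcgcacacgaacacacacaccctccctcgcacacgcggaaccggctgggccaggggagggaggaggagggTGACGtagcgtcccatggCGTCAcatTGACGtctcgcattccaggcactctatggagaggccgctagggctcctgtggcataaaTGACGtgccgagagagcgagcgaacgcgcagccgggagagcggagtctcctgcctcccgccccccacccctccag

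In the RAS-MAPK pathway the lines differed gene by gene, with 5 higher and 11 lower in H460 of 23 tested. NRAS had 858, 521 and 467 counts in H1299 and 354, 555 and 561 in H460 (-0.75 ± 0.13), and HRAS overlapped between the lines. Negative feedback genes, which ERK signalling induces, were mostly lower, namely SPRY2 (723, 487 and 585 counts in H1299 and 72, 75 and 90 in H460, -3.35 ± 0.15), SPRY1 (-3.31), SPRY4 (-2.07), DUSP6 (-1.58) and PHLDA1 (-4.09). The phosphatase gene DUSP4 was the exception, with 42, 30 and 23 counts in H1299 and 1298, 1490 and 1545 in H460 (5.09 ± 0.15). FOSL1 (-2.13), ETV5 (-1.36) and the ephrin receptor gene EPHA2 (-2.53) were lower, and ETV4 (1.73), ETV1 (1.52) and MYC (1887, 1480 and 1442 counts in H1299 and 5340, 6873 and 7291 in H460, 1.58 ± 0.11) higher. HMGA2, a chromatin architectural protein, was read almost only in H1299 (2020, 1602 and 1479 counts in H1299 and 1, 4 and 5 in H460, -9.37 ± 0.20).

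Of 23 SWI/SNF subunits 18 did not pass the 2-fold rule. SMARCA4 (BRG1) had 167, 121 and 104 counts in H1299 and 1579, 1805 and 1895 in H460 (3.33 ± 0.12, edgeR adjusted p = 1.28e-11), and the libraries of the lines were far apart. SMARCA2 (BRM), the alternative ATPase, had 204, 119 and 128 counts in H1299 and 261, 298 and 346 in H460 (0.59 ± 0.14). SMARCD3 (3.31) was also higher and DPF1 (-2.35) lower. Among other driver and suppressor genes of lung cancer, TERT (2.22) and NF1 (1.23) were higher, and PIK3CA (-1.30) and FGFR1 (-1.28) lower.

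Epithelial genes were divided between the lines. The adhesion genes CDH1 (E-cadherin), with 0 or 1 count in each library, and EPCAM, with 0 to 5, were near the floor in both, and 12 of 34 epithelial genes did not pass the filter. Of the 22 tested, 11 were higher in H460 and 6 lower. The keratin gene KRT19 had 0, 0 and 2 counts in H1299 and 3676, 4448 and 4545 in H460, 4684-fold higher (interval 1296 to 38678). KRT7 (58, 31 and 45 counts in H1299 and 1117, 1229 and 1149 in H460, 4.29 ± 0.17), KRT8 (1.55) and the junction gene JUP (72, 43 and 69 counts in H1299 and 3406, 4027 and 3617 in H460, 5.48 ± 0.18) were higher as well, and KRT18, the partner of KRT8, was not (0.11 ± 0.11, and 0.37 with a call when library size was the only scaling). Occludin (OCLN, 187, 176 and 135 counts in H1299 and 1, 8 and 3 in H460, -5.77 ± 0.32), desmoplakin (DSP, -4.17) and the protease inhibitor gene SPINT2 (-5.53) were read mainly in H1299.

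Mesenchymal genes were divided too, with 14 higher and 11 lower of 30. Cadherin-11 (CDH11), the leading one in H460, had 1, 0 and 1 counts in H1299 and 7962, 10131 and 9765 in H460, 10299-fold higher (interval 2851 to 85043). Fibronectin (FN1) had 337, 206 and 264 counts in H1299 and 31284, 37684 and 40558 in H460 (6.66 ± 0.18), and TGFBI (8.12), S100A4 (6.68), SNAI1 (3.88) and SNAI2 (3.44) were also higher in H460. On the H1299 side, vimentin (VIM) had 42286, 34598 and 33379 counts in H1299 and 12194, 16140 and 15884 in H460 (-1.76 ± 0.14), the receptor kinase gene AXL 12018, 9009 and 8509 counts in H1299 and 331, 388 and 390 in H460 (-5.16 ± 0.14) and the transcription factor gene TWIST1 89, 55 and 68 counts in H1299 and 1, 0 and 1 in H460. N-cadherin (CDH2, -1.92) and the proteases MMP14 (-6.38) and MMP2 (-4.08) followed, while ZEB1 differed by less than 2-fold (-0.54 ± 0.17), a call lost without any of H1299 replicates 1 and 3 and H460 replicate 5 (-0.50 to -0.47) and with library size as the only scaling (-0.28). Each line thus held its own set of mesenchymal genes.

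Collagens were mostly higher in H460, 19 of 23 with 4 lower and a median of 3.31. COL5A2 had 19, 5 and 5 counts in H1299 and 11188, 13608 and 13757 in H460 (9.95 ± 0.25), COL8A1 0, 4 and 2 counts in H1299 and 2018, 2250 and 2539 in H460 (9.64 ± 0.28) and COL3A1 0, 2 and 0 counts in H1299 and 491, 610 and 612 in H460. The basement membrane chains COL4A1 to COL4A6 were all higher, COL4A2 with 3, 1 and 1 counts in H1299 and 629, 704 and 721 in H460 (8.17 ± 0.25). COL18A1 (-2.37), COL6A2 (-3.25), COL17A1 (-4.47) and COL13A1 were lower. COL6A1 was higher (188, 139 and 161 counts in H1299 and 591, 736 and 738 in H460, 1.65 ± 0.12) although COL6A2, its partner in type VI collagen on the same chromosome arm, was lower (247, 211 and 221 counts in H1299 and 33, 34 and 29 in H460, -3.25 ± 0.19). The other 16 of 39 collagen genes did not pass the filter.

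Integrins and laminins, the receptors and ligands of the basement membrane, divided by subunit (8 higher and 12 lower of 24). The laminin chain LAMA1 had 3, 1 and 5 counts in H1299 and 3749, 4789 and 4715 in H460 (10.04 ± 0.23), with LAMC3 (3.78), LAMC1 (2.01) and LAMB1 (1.20) also higher. Of the chains of laminin-332, LAMB3 (2503, 1914 and 1979 counts in H1299 and 367, 520 and 467 in H460, -2.68 ± 0.11) was lower and LAMA3 (2.13) higher. The integrin genes for its receptors ITGA3 (9958, 8573 and 9528 counts in H1299 and 162, 279 and 230 in H460, -5.85 ± 0.17), ITGA6 (-2.04) and ITGB4 (-5.58) were lower, as was ITGA4 (-6.59). ITGB3 had 78, 50 and 66 counts in H1299 and 0, 2 and 1 in H460, 87.5-fold higher (interval 29.5 to 428) in H1299. ITGB8 (4.03) and ITGB5 (1.38) were higher.

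**Figure D4:**
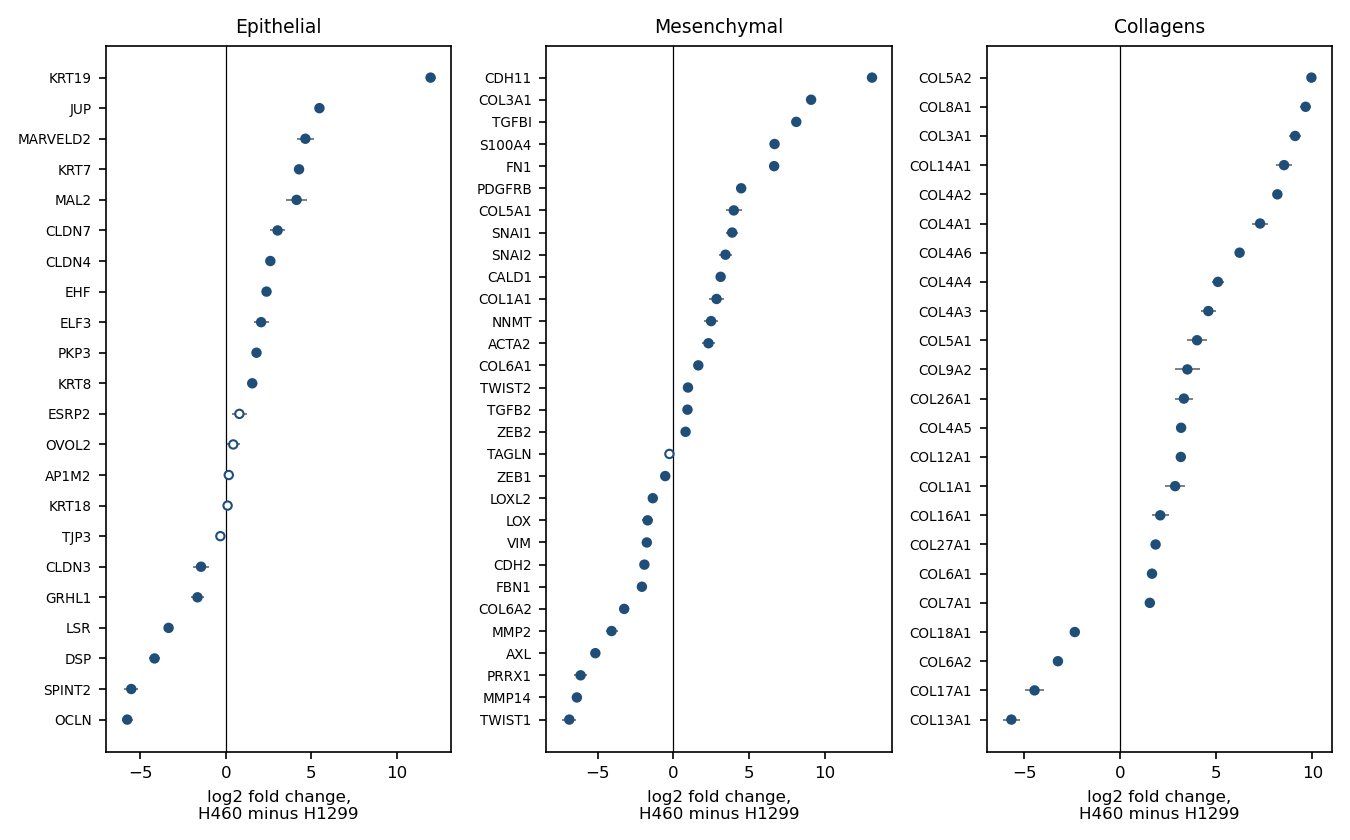
Log2 fold change (H460 minus H1299) of each tested epithelial gene, mesenchymal gene and collagen. Points are filled where the adjusted p was under 0.05 and open where it was not. Bars are the approximate standard error worked back from the test (n = 3 libraries per line), too small where a line had few counts. Epithelial and mesenchymal genes spread to both sides, whereas 19 of the 23 collagens lie to the right.

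Lung lineage genes were almost silent. Of 22, 17 did not pass the filter, among them NKX2-1 (1 to 5 counts per library), SFTPB, SCGB1A1 and TP63. FOXA1 had 30, 23 and 31 counts in H1299 and 1007, 1097 and 1057 in H460 (4.81 ± 0.17) and HOPX 1, 3 and 2 counts in H1299 and 319, 364 and 370 in H460 (6.95 ± 0.28), both higher in H460, and GATA6 (-2.72) was lower. The label of the lines as lung cancer cells therefore could not be checked by surfactant or thyroid transcription factor genes. Of 14 neural and neuroendocrine genes 6 were higher, led by L1CAM (8, 5 and 7 counts in H1299 and 3977, 4762 and 4469 in H460, 8.92 ± 0.19), NRCAM (7.07) and the neurofilament gene NEFL (4.02), and 3 lower, ENO2 (-3.42), POU3F2 (-2.78) and CHGB, which had 35, 18 and 29 counts in H1299 and none in H460. NEUROD1, INSM1 and GRP did not pass the filter. UCHL1 had 5864, 4222 and 4188 counts in H1299 and 4783, 6512 and 6378 in H460 (-0.12 ± 0.11). The gene T, which encodes the mesodermal factor brachyury, had 0, 1 and 1 counts in H1299 and 4693, 5097 and 4985 in H460.

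Cancer-testis antigens, germ-cell genes that tumours can switch on, were the list most tilted to H1299 among those with at least 10 genes tested. This list too was chosen with earlier results known. Of 39 genes 21 could be tested, and 19 were lower in H460 and 2 higher, with a median log2 fold change of -11.36 (-9.78 with genes at 0 counts set to their bound). MAGEA4 had 14927, 11838 and 11689 counts in H1299 and 2, 3 and 2 in H460 (-12.78 ± 0.22). The GAGE genes are near-identical copies, so reads cannot be assigned to single members, and the 13 in the table summed to 15680, 13931 and 10439 in H1299 against 1, 0 and 2. MAGEA3 and MAGEA6, CTAG1A and CTAG1B, and XAGE1A and XAGE1B are near-identical pairs as well. CTAG2, which has no such twin in the list, had 405, 338 and 278 counts against none (at least 460.3-fold). PRAME, on chromosome 22, was read in both lines (1805, 1405 and 1476 counts in H1299 and 566, 715 and 642 in H460, -1.72 ± 0.11). H460 had its own members of the class, MAGEA1 (47, 48 and 27 counts in H1299 and 1004, 1240 and 1308 in H460, 4.43 ± 0.16) and MAGEB2 (1, 0 and 0 counts in H1299 and 750, 890 and 790 in H460, 1797-fold higher (interval 322 to 70993)).

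HOX genes, which mark position along the body axis, gave 9 higher and 15 lower of 27. HOXB4 had 895, 857 and 746 counts in H1299 and 13, 11 and 6 in H460 (-6.80 ± 0.21) and HOXB2 173, 148 and 156 counts in H1299 and 0, 0 and 1 in H460, and HOXB3 (-3.20), HOXC6 (-2.75), HOXC10 (-2.95) and HOXA7 (-2.73) were lower too. HOXA11 (1, 1 and 2 counts in H1299 and 84, 107 and 107 in H460, 5.68 ± 0.38), HOXA10 (4.63), HOXA3 (2.71) and HOXB13 (2.12) were higher. Within the HOXB cluster the direction changed from gene to gene, since HOXB5 (1.78) and HOXB6 (1.36) were higher between lower neighbours.

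Imprinted genes, read from a single parental copy in normal cells, included several that were silent in 1 of the lines. SNRPN, in the Prader-Willi region of chromosome 15, had 3, 1 and 0 counts in H1299 and 1295, 1536 and 1557 in H460 (9.56 ± 0.26), and NDN in the same region had no count in H1299 and 22, 24 and 29 in H460 (at least 18.5-fold). The small nucleolar RNAs of the SNORD116 cluster, processed from a long transcript of the same locus and picked after their values were seen, followed it. All 25 tested copies were higher, and the 28 in the table summed to 0, 2 and 1 against 1970, 2969 and 4448. The neighbouring SNORD115 copies summed to at most 4 counts in a library. MKRN3, a further gene of the region, went the other way (61, 41 and 34 counts in H1299 and 0, 4 and 0 in H460, -5.37 ± 0.57). MEST (7, 7 and 9 counts in H1299 and 520, 776 and 770 in H460, 6.02 ± 0.19) was higher, and the neighbours PEG10 (2463, 1901 and 2232 counts in H1299 and 256, 336 and 333 in H460, -3.28 ± 0.13) and SGCE (343, 297 and 239 counts in H1299 and 4, 14 and 5 in H460, -5.67 ± 0.26) were lower in H460.

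MHC class I genes were on the whole higher in H460, 8 of 19 with 1 lower and a median of 0.89. The lower gene was HLA-B, with 1093, 954 and 1073 counts in H1299 and 553, 629 and 657 in H460 (-1.21 ± 0.12), and class I genes are similar and variable in sequence, so that reads can shift between paralogues. The class I transactivator NLRC5 (2.79) and the immunoproteasome genes PSMB8 (2.59), PSMB9 (1.74) and PSMB10 (1.53) were higher, and B2M (0.99 ± 0.11) was just under 2-fold.

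Interferon-stimulated genes had 13 higher and 6 lower of 29. OAS1, a sensor of double-stranded RNA, had no count in H1299 and 1155, 1557 and 1330 in H460, at least 996-fold higher. IFI16, a DNA sensor, had 4, 2 and 0 counts in H1299 and 439, 562 and 679 in H460 (7.62 ± 0.29), and IFI44L (0, 1 and 0 counts in H1299 and 145, 240 and 210 in H460), IFITM3 (2.86) and OAS3 (2.49) were higher. Against this direction, ISG15 had 323, 281 and 163 counts in H1299 and 29, 46 and 77 in H460 (-2.77 ± 0.24) and MB21D1, which encodes cGAS, 167, 137 and 116 counts in H1299 and 39, 48 and 44 in H460 (-2.11 ± 0.18). The 6 lower genes were 3 without H460 replicate 5 and 3 with library size as the only scaling.

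Cytokines and NF-κB genes were higher in 13 of 20 and lower in 3, with a median of 2.39. IL6 had no count in H1299 and 112, 229 and 242 in H460, at least 144-fold higher. The neutrophil chemokine genes CXCL5 (1, 3 and 3 counts in H1299 and 1579, 1980 and 1924 in H460, 9.12 ± 0.22), CXCL8 (0, 0 and 2 counts in H1299 and 207, 354 and 342 in H460) and CXCL1 (5.07) were higher, and CXCL2, in the same cluster of chromosome 4, was lower (1617, 1306 and 1196 counts in H1299 and 171, 268 and 292 in H460, -2.94 ± 0.12). The inhibitors NFKBIA (2.07) and TNFAIP3 (3.54) were higher, while RELB, a subunit of noncanonical NF-κB (-3.04), and BIRC3, a ubiquitin ligase of the same pathway (-3.83), were lower.

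Growth factor and receptor genes were divided in each family. Of 23 ERBB, MET and related genes 5 were higher, with EGF (1, 2 and 2 counts in H1299 and 162, 198 and 204 in H460, 6.30 ± 0.31) and IGF1R (2.10) among them, and 9 lower, including ERRFI1, a feedback inhibitor of the EGF receptor (2421, 1723 and 1703 counts in H1299 and 343, 430 and 427 in H460, -2.71 ± 0.11), and ERBB3 (-2.72). Of 18 Wnt genes 3 were higher and 9 lower. WNT5A had 3, 3 and 0 counts in H1299 and 645, 733 and 737 in H460 (7.97 ± 0.28), whereas WNT5B (-3.52), the WNT5A receptor genes ROR2 (-5.45) and ROR1 (-1.88) and the Wnt antagonists SFRP1 (894, 749 and 743 counts in H1299 and 4, 7 and 5 in H460, -7.63 ± 0.18) and DKK3 (-6.51) were lower. Of 25 TGF-beta and BMP genes 6 were higher, such as SMAD6 (3.71) and ID2 (2.39), and 8 lower, such as LTBP2 (-4.99), TGFBR2 (-1.75) and TGFB1 (-1.63).

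Among neurotrophins and their receptors, the family of NGFR, 2 of 13 tested genes were higher and 6 lower. NTRK2, NTRK3 and NTF3 did not pass the filter. BDNF was read in both lines (370, 219 and 243 counts in H1299 and 308, 401 and 504 in H460, 0.11 ± 0.14, and 0.37 with a call when library size was the only scaling). The sortilin-type receptors SORL1 (972, 715 and 760 counts in H1299 and 25, 48 and 30 in H460, -5.00 ± 0.17), SORT1 (733, 563 and 494 counts in H1299 and 85, 107 and 105 in H460, -3.02 ± 0.12) and SORCS2 (-6.05) were lower, as were the adaptor genes BEX2, BEX4 (-3.22) and BEX1 (391, 328 and 352 counts in H1299 and 0, 1 and 0 in H460, 1448-fold higher (interval 259 to 57267) in H1299). TRAF4 (1.21) and the Nogo receptor gene RTN4R (1.10) were higher.

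In glycolysis and hypoxia, 8 of 31 genes were higher and 2 lower. CA12, a carbonic anhydrase, had no count in H1299 and 1335, 1638 and 1569 in H460, at least 1119-fold higher, whereas CA9 had at most 1 count in a library. EPAS1, which encodes HIF-2α, had 26, 18 and 19 counts in H1299 and 1102, 1274 and 1329 in H460 (5.45 ± 0.15), with EGLN3 (6.46), ALDOC (5.37), ALDOA (2.37) and HK1 (2.37) also higher. Of 30 genes of cholesterol and fatty acid synthesis 8 were higher and 1 lower, and 21 were higher at the adjusted p alone. The desaturases FADS2 (250, 261 and 225 counts in H1299 and 3560, 3970 and 3764 in H460, 3.51 ± 0.14) and FADS1 (2.52) led.

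Few genes of proliferation were called by the 2-fold rule. Of 38 DNA replication genes 0 were called in either direction by edgeR with the 2-fold rule (5 higher with library size as the only scaling), with 13 higher and 12 lower at the adjusted p alone. Of 35 genes of G2 and mitosis 0 were higher and 5 lower (3 with library size as the only scaling), with a median of -0.44, namely TPX2 (3750, 2432 and 2244 counts in H1299 and 992, 1436 and 1497 in H460, -1.53 ± 0.12), KIF2C (-1.39), TTK (-1.30), HMMR (-1.13) and CENPE. Of 75 cytosolic ribosomal protein genes, which have many pseudogenes, 3 were higher and 3 lower with a median of -0.01. Of 31 proteasome subunits 2 were higher and 2 lower, and PSMD8 (9038, 7735 and 6736 counts in H1299 and 1851, 2294 and 2136 in H460, -2.33 ± 0.12) and PSMC4 (-1.45), both on chromosome 19, were the lower ones.

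Some genes were read in a single line. Protein-coding genes with at most 3 counts over the 3 libraries of a line and a mean of at least 50 in the other numbered 153 for H460 and 86 for H1299, and 41 and 32 of them had no count at all in the silent line. In the siNGFR libraries of the silent line, 110 of the 153 and 78 of the 86 again had at most 3 counts. The genes read only in H1299 lay on the X chromosome in 39 cases (45.3%), and those read only in H460 in 17 (11.1%), against 3.7% of all tested protein-coding genes. With a lower minimum of counts than this, X-linked genes read only in H1299 formed runs of neighbours, such as 13 GAGE genes and 9 CT45A genes. The pattern was noticed after the values were seen. The 39 cases count near-identical genes singly, among them GAGE copies and the pairs named with the cancer-testis antigens. The share of 45.3% is thus not one of separate loci. By level per kilobase of exon, the top genes of H460 included SRGN (serglycin, 2384, 3351 and 3288 counts against none), AGR2, a disulphide isomerase of mucus-secreting cells (2595, 4479 and 4381 against none), and S100P (788, 1075 and 906 against 1, 1 and 0), beside AKR1B10, ALDH3A1, KRT19, T, CDH11, SNURF and the transcript CH507-42P11.8. CH507-42P11.8 had 1, 0 and 0 counts in H1299 and 2483, 2833 and 2943 in H460, much like SIK1, which is also on chromosome 21. Whether it shares reads with SIK1 was not tested. The top genes of H1299 were 8 GAGE copies with CTAG1A and CTAG1B.

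Among genes with at least 10 counts in all 6 libraries, the melanoma cell adhesion molecule MCAM had the largest rise, with 28, 24 and 10 counts in H1299 and 4231, 5300 and 5105 in H460 (7.45 ± 0.20), followed by S100A4, FN1, CRIP1 (6.61), the lysosomal protease gene CTSZ (6.33), the kinase gene PAK3 (6.04), TUBA4A (5.99), FERMT3 (5.70), NID2 (5.70) and CREG1 (5.68). The largest falls were those of the neuropeptide precursor VGF, with 2450, 2033 and 2028 counts in H1299 and 16, 10 and 18 in H460 (-7.63 ± 0.19), and of filamin C (FLNC), with 8822, 7813 and 7716 counts in H1299 and 63, 51 and 63 in H460 (-7.53 ± 0.19). AKAP12 (-6.55), the histone gene HIST1H2AG (-6.10), the RNA-binding protein gene IGF2BP1 (-6.04), ISYNA1 (-5.87), ITGA3, SCRN1 (-5.58) and ITGB4 followed. These genes were picked for a large difference and for no overlap between the libraries of the lines, so their separation is not a result.

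Of 470 long intergenic noncoding RNAs 117 were higher and 130 lower in H460. Of 1271 antisense RNAs 301 were higher (23.7%) and 200 lower (15.7%), and in the siNGFR libraries 243 and 224. PART1 (154, 197 and 188 counts against none) and ELFN1-AS1 (164, 155 and 117 against none) were read in H460 only, and LINC00824 had 1, 3 and 1 counts in H1299 and 2192, 2842 and 2869 in H460. RP11-311F12.2, with 765, 815 and 790 counts against none, lies at the end of ALDH3A1 on the opposite strand, so reads cannot be assigned between them. KCNMA1-AS1 (145, 166 and 170 counts in H1299 and 2, 1 and 1 in H460) and LINC00839 (349, 263 and 237 counts in H1299 and 16, 8 and 17 in H460) were higher in H1299, as was RP11-309L24.2, which overlaps FLNC on the opposite strand. MALAT1 had 8635, 7477 and 6351 counts in H1299 and 4025, 5445 and 5732 in H460.

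The classes of small RNA differed in direction. Of 157 small nuclear RNA genes, many of them copies that share reads, 110 were lower and 5 higher in H460, with a median of -1.40, whereas of 282 small nucleolar RNA genes 49 were lower and 44 higher. Of 456 genes annotated as miscellaneous RNA, a class that holds copies of 7SK, 7SL and Y RNAs, 162 were lower and 18 higher, but in the siNGFR libraries 14 were lower and 158 higher. The U1 copies summed to 973770, 1374427 and 605141 counts in H1299 and 360049, 366578 and 626693 in H460, and 40 of 59 tested copies were lower and 5 higher. RN7SK, the RNA that holds the elongation factor P-TEFb, had 1329710, 1233351 and 1397922 counts against 693413, 631771 and 595219 (log2 fold change -1.47 ± 0.27). RN7SK has pseudogenes that can share its reads. In the siNGFR libraries its log2 fold change was 0.48, and the median of the small nuclear RNA genes was -0.32. The Y RNA gene RNY1 was higher in H460 (4178, 3590 and 2287 against 8404, 12467 and 13602, log2 fold change 1.34 ± 0.15). Among protein-coding families picked after their values were seen, 111 of 217 zinc finger genes (ZNF) of chromosome 19 were lower and 5 higher (median -1.02), and 21 of 22 protocadherin gamma genes, which share exons, were higher (median 1.69).

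The direction of the difference varied along the genome. Of 985 tested protein-coding genes of chromosome 19, 381 (38.7%) were lower and 58 (5.89%) higher in H460, with a median of -0.58, against 16.6% lower and 19.6% higher over all protein-coding genes. Chromosomes 8 (-0.42) and 6 (-0.39) had the next lowest medians and chromosomes 14 (0.55), X (0.46) and 16 (0.44) the highest among the nuclear chromosomes. With library size as the only scaling the medians of chromosomes 19, 8 and 6 were -0.32, -0.16 and -0.12, still below 0. The 11 tested mitochondrial genes had a median of 1.38, at 0.00713% to 0.0116% of the counts in H1299 and 0.0190% to 0.0208% in H460. In windows of 10 Mb, 97 of 141 genes of chromosome 19 between 30 and 40 Mb were lower (median -1.45), as were 121 of 215 between 40 and 50 Mb (-1.20) and 28 of 38 between 10 and 20 Mb of chromosome 12 (-1.50). On the other side, 15 of 19 genes in the first 10 Mb of the X chromosome (median 2.28), 15 of 25 between 220 and 230 Mb of chromosome 2 (2.19) and 38 of 56 between 50 and 60 Mb of chromosome 16 (1.30) were higher. Of 291 windows, 28 had a median beyond 1 in either direction.

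**Figure D5:**
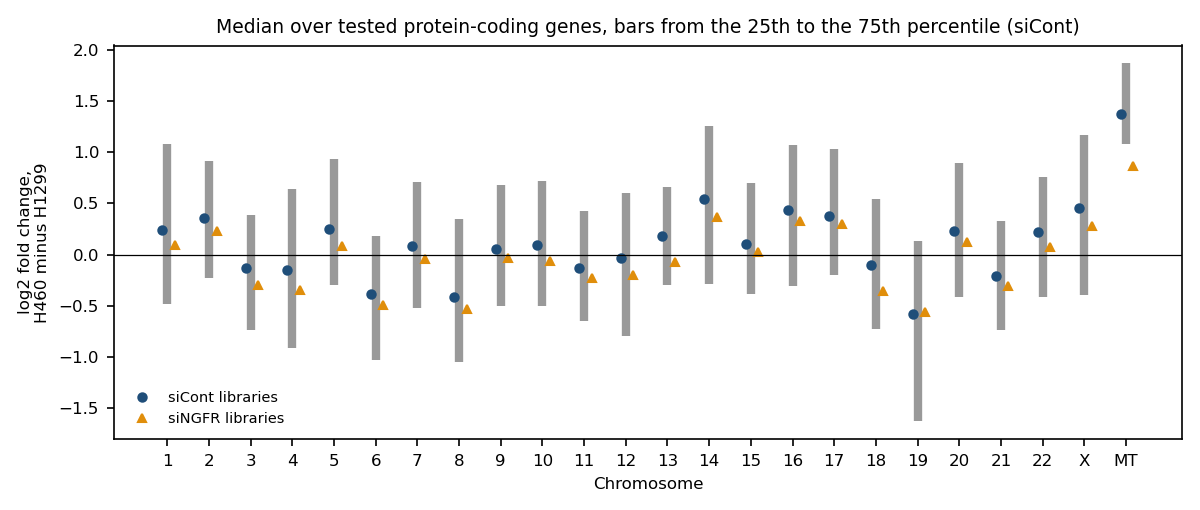
Median log2 fold change (H460 minus H1299) of the tested protein-coding genes of each chromosome in the siCont libraries (circles, with bars from the 25th to the 75th percentile) and in the siNGFR libraries (triangles). Chromosome 19 has the lowest median in both, at -0.58 and -0.56, and chromosome 14 the highest of the nuclear chromosomes, at 0.55 and 0.37.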

How the data were processed

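The authors aligned Ion Torrent reads of ribosome-depleted total RNA to hg38 with STAR and Bowtie2, per the labels, and deposited raw read counts per gene for 12 libraries. The counting program, its use of strand and tool versions are not given in the sources used. The authors' comparisons of siNGFR with siCont, with posterior probabilities, fold changes and 24 columns that repeat per-sample values, were not used. Of 64253 genes in the table, 56591 matched GENCODE 29 by identifier, and 20235 had no count in the 6 siCont libraries.

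Counts of the siCont libraries (19107878 to 26625647 per library) were filtered with filterByExpr, scaled by TMM and tested with edgeR 4.0.16 in R 4.3.3 (quasi-likelihood, two-sided, Benjamini-Hochberg over 20105 genes). The siNGFR libraries were fitted in the same way on their own, and the difference between the comparisons in a fit of all 12 libraries. Overlap between lines was judged on CPM. Alternatives were library size as the only scaling, DESeq2 1.42.0, no filter, at least 10 counts in every library, a fit of all 12 libraries, removal of genes under 400 exon bases or with repeated counts, and each library left out. In data simulated from these libraries (19639 genes), 40.3% of 67 genes changed 1.5-fold, 94% of 67 changed 2-fold and 100% of 66 changed 4-fold were called, with 10 false calls.

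Members and lists were chosen with earlier results of these data known. Named genes were the p53 pathway genes of the study, the 10 largest differences per direction with at least 10 counts in every library, the 10 highest genes per line that were read there alone, up to 4 called genes per list and direction with the members that define the list, and 5 long noncoding RNAs per direction. Further list members, families and the TGACG motif were named after their values were seen. Y-linked genes and XIST were left out. The largest differences were taken from protein-coding genes with an adjusted p under 0.05 and no overlap between the lines. Some genes of these lists are counted but not reported singly here. Promoters came from RefSeq (GRCh38.p14). Counting intervals are exact at the 95% level.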

Additional observations from a re-analysis of the deposited data

Results flagged for a closer look

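The line difference in the siCont libraries was set against that in the siNGFR libraries by a test of the difference itself (edgeR quasi-likelihood, Benjamini-Hochberg adjusted over 21583 genes). It passed for 92 genes, and 13 of these are named or are members of the lists above. Values are the siCont log2 fold change minus the siNGFR one, so a negative value means that H460 stood higher relative to H1299 in the siNGFR libraries. The siNGFR comparison also holds the knockdown effect of each line, and which line moved is not told by the difference. All groups held 3 libraries, too few for a test of single outlying samples.

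Among p53 targets, CDKN1A differed by -2.401 (edgeR adjusted p = 0.004677), MDM2 by -1.12 (0.01919), FDXR by -1.436 (0.04056), PLK3 by -1.504 (0.04056), TNFRSF10D by -1.266 (0.02048), LIF by -1.107 (0.04013) and DKK1 by -2.835 (0.004028). IGFBP3 went the other way, by 2.817 (6.592e-05). Of the other lists, LTBP2 differed by -1.429 (0.02463), LAMB3 by -1.087 (0.02048), ID3 by 1.018 (0.03516), CTNNB1 by 0.9058 (0.01996) and PEG10 by 1.514 (0.004794).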

How the results depend on the processing

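Of 613 values computed for 49 counts under the alternatives, 578 stayed within 1.5 times the count given and 35 did not. Calls over all genes (6419 higher and 6294 lower) were 6064 and 5822 with DESeq2, 8056 and 4501 with library size as the only scaling, 7161 and 7050 with no filter, and 5895 to 6297 and 5679 to 6293 with a library left out. No paired analysis was possible because the columns of the 2 lines share no replicate number.

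Requiring at least 10 counts in every library removes genes silent in a line by its construction, and left 2094 genes higher and 2195 lower by the 2-fold rule. Higher genes were then 2 for p53 arrest, 4 for p53 feedback and secreted targets, 6 for LKB1 and CREB-CRTC, 6 epithelial, 4 mesenchymal, 1 neural, 5 interferon, 6 cytokine, 5 collagen, 13 xenobiotic, 2 imprinted and 4 glycolytic genes. Lower genes were 3 for p53 feedback, 5 for all p53 targets, 3 for INK4-RB, 1 epithelial, 6 mesenchymal, 1 cancer-testis, 9 HOX, 3 Wnt, 5 TGF-beta, 6 integrin and laminin, 3 imprinted and 3 neurotrophin genes. With library size as the only scaling, lower interferon genes were 3, driver genes 8 higher and 3 lower, and lower G2 and mitosis genes 3. Interferon genes lower in H460 were 3 to 7 with a library left out, 3 of them without H460 replicate 5. Genes read in a single line were 41 for H460 and 32 for H1299 with at most 0 counts allowed in the other, and 297 and 148 with at most 10. Leaving out a library gave 150 to 220 and 79 to 116.

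Of 844 single genes, library size as the only scaling lost 65 calls and gained 61, and leaving out H460 replicate 5 lost 46 and gained 2, the most of any library. Simulated 1.5-fold changes were mostly missed, but few genes were changed in the simulation. Its adjusted p is stricter for that reason, and the share missed between the lines was not measured. Replicates stand for cultures of a single line each, and counts over whole genes cannot show which exons were read.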
